A study of Drosophila melanogaster with 6 samples.

Results

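The 5 genes described here encode the tumour necrosis factor (TNF) ligand of Drosophila, its receptors and the TRAF adaptors: egr (Eiger), grnd (Grindelwald), wgn (Wengen), Traf4 and Traf6. They were chosen by name as the upstream part of the fly TNF pathway, and each matched 1 row of the 16451 genes in the deposited tables. Messenger RNA was sequenced from S2 cells, an embryonic Drosophila melanogaster line of hemocyte (blood cell) character, labelled wild type. The control group of 3 libraries received Schneider's medium alone, and the other group of 3 was exposed to hydrogen peroxide (H2O2) at 10 mM. Both groups were held for 30 min at 25 °C. All libraries come from the same single cell line, and the labels do not say whether replicates were separate cultures, and the spread that enters each p-value could therefore be technical alone.

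Eiger is a transmembrane ligand of the TNF superfamily that can be shed from the cell surface, and blood cells are a known source of it in the fly. It binds the cysteine-rich receptors Grindelwald and Wengen. TRAF adaptors pass the signal to a kinase cascade that ends in the c-Jun N-terminal kinase JNK, encoded by bsk, and the pathway is known for its part in cell death, tumour growth and wound responses.

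The libraries held between 35404927 and 42043808 expected counts. All 9 hemocyte markers examined were at 1 TPM or more in every library (TPM, the share of transcripts scaled to a fixed total, is a level corrected for transcript length), with a summed level of 1970 to 2190 TPM in controls and 1530 to 1760 TPM after H2O2. Among the hemocyte markers, Hml was at 395 to 553 TPM in controls and 259 to 310 TPM after H2O2. Col4a1 was at 324 to 374 and 217 to 271 TPM, and vkg at 138 to 176 and 106 to 128 TPM. The ranges of the remaining hemocyte markers overlapped between the groups. Of 3 fat body markers, Lsp2 and Fbp1 were under 0.1 TPM in every library, and the 3 together summed to at most 0.14 TPM. Muscle markers summed to 0.92 to 2.21 TPM in controls and 1.2 to 1.97 TPM after H2O2, and bt was under 0.1 TPM throughout. Neuronal markers summed to 7.93 to 10.8 and 5.94 to 7.92 TPM, the 3 ovarian and germ-line markers to 96.2 to 126 and 95.2 to 132 TPM, and the 3 epithelial markers to 114 to 171 and 107 to 122 TPM. In the ovarian and germ-line list bam made up nearly all of the sum, with vas at 0.10 to 0.40 TPM and tj at 0.08 to 0.25 TPM, and in the epithelial list cora did, at 100.5 to 162 TPM. The part of these shifts in the results was not tested.

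S2 cells contained much ligand mRNA, moderate amounts of one receptor and one adaptor, little of the other adaptor, and almost none of the second receptor. In controls the mean level per transcript length was 252 ± 59.3 TPM for egr, 31.8 ± 4.03 for wgn, 14.9 ± 2.87 for Traf4 and 3.94 ± 0.0902 for Traf6 (SD, n = 3). After H2O2 the same genes stood at 240 ± 50.8, 33.0 ± 1.55, 15.7 ± 1.95 and 2.78 ± 0.391 TPM (SD, n = 3), in the same order. The library ranges of neighbours in this order did not overlap in either group. In controls, the mean TPM of egr was 7.93 times that of wgn, wgn was 2.14 times Traf4, and Traf4 was 3.77 times Traf6.

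**Figure D1:**
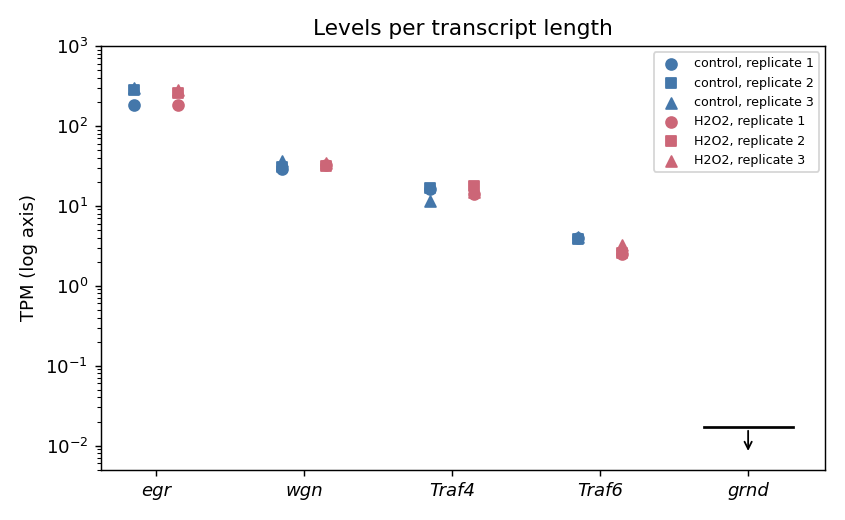
Level per transcript length of the TNF ligand, receptor and adaptor genes in each library (TPM, log axis; blue control, red H2O2, marker shape gives the replicate number). The line with an arrow for grnd marks 0.017 TPM, the level that 3 counts over the 3 control libraries would give; egr lies at 182 to 294 TPM and Traf6 at 2.53 to 4.03 TPM.

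The ligand gene egr (FBgn0033483) lies on chromosome 2R from 10078366 to 10084210, on the plus strand, in the BDGP6.54 assembly. It was among the more abundant mRNAs of these cells, with TPM ranks of 661, 369 and 342 in controls 1, 2 and 3; values per library below keep this order of replicate numbers. Normalized counts of egr (CPM, counts scaled to a fixed library total) were 322, 504 and 528 in controls and 341, 516 and 512 after H2O2. Replicate 1 was the lowest library of both groups, and the groups overlapped. The highest control exceeded the lowest 1.64-fold, and the highest H2O2 library exceeded the lowest 1.51-fold.

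The log2 fold change of egr after H2O2 was 0.02 (SE 0.24, 95% interval −0.55 to 0.58, edgeR adjusted p = 0.989). Libraries with the same replicate number resembled each other: within pairs 1, 2 and 3 the log2 difference in CPM was 0.09, 0.03 and −0.05. With the replicate number as a block, the interval narrowed to −0.13 to 0.18 around the same 0.02. The difference between replicate numbers was wider than the difference between treatments. RSEM, the program that made the counts, divides egr between transcripts of 2166 and 2148 nt. From the abundance-weighted gene length it reports, the longer one held 78.4%, 78.3% and 78.0% of egr in controls and 79.1%, 79.6% and 78.4% after H2O2, in the order of replicate numbers. These ranges overlapped, and the transcripts differ by so few bases that the split rests on RSEM's model.

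The receptor gene grnd (FBgn0032682) lies on chromosome 2L from 18485417 to 18488021, on the plus strand. It encodes the receptor that binds Eiger with high affinity and that was first described in growing imaginal discs. It was assigned 0 counts in all 3 controls and in H2O2 replicates 1 and 2, and 1 count in H2O2 replicate 3. With 3 counts as the limit that a count of 0 allows, over the 113007438 counts of the control group, grnd was at most 0.0265 CPM or 0.017 TPM. This limit covers counting error only; the exact two-sided Poisson interval for 0 counts reaches 3.69 counts. Per transcript length, control wgn was at least 1870-fold higher than grnd, taken against those 3 counts over the group, and egr at least 14900-fold. The 1 count in 115507873 after H2O2 has an exact two-sided Poisson interval of 0.0253 to 5.57 counts, so no change of grnd was detectable at this depth. Its exons share 275 bases with exons of kon on the opposite strand, and kon had 140 to 346 counts per library. The low-count filter removed grnd, and no fold change is given for it. The planned ratio of grnd to wgn TPM could not be formed, because grnd was listed at 0 in 5 of the 6 libraries.

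The receptor gene wgn (FBgn0030941) lies on chromosome X from 18624042 to 18634908, on the minus strand, and encodes the other TNF receptor of the fly. Its CPM was 56.4, 62.4 and 73.6 in controls and 68.7, 72.0 and 72.0 after H2O2. All H2O2 libraries exceeded control replicates 1 and 2, while control replicate 3 was the highest of all, so the groups overlapped. The log2 fold change was 0.14 (SE 0.12, 95% interval −0.14 to 0.43, edgeR adjusted p = 0.751). Nearly all wgn was given to its shorter transcript of 2415 nt, with shares from 99.5% to 100.0% over the 6 libraries. Ligand mRNA exceeded mRNA of this receptor in each library: the ratio of egr to wgn TPM was 6.44, 9.13 and 8.10 in controls and 5.61, 8.09 and 8.02 after H2O2, again lowest in replicate 1 of both groups.

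The adaptor gene Traf4 (FBgn0026319) lies on chromosome 2L from 4361925 to 4380716, on the plus strand. Its protein is known to bind Misshapen, a kinase upstream of JNK. The CPM of Traf4 was 31.5, 33.2 and 22.8 in controls and 29.4, 39.4 and 30.0 after H2O2. Control replicate 3 was the lowest and H2O2 replicate 2 the highest, and the groups overlapped. The log2 fold change was 0.17 (SE 0.19, 95% interval −0.26 to 0.61, edgeR adjusted p = 0.826), and within pairs 1, 2 and 3 it was −0.10, 0.25 and 0.40. The transcript of 2361 nt held 99.8% to 100.0% of Traf4. Its exons share 864 bases with lncRNA:CR45363 on the opposite strand, which had between 2 and 10 counts per library. The kit keeps strand, but no source used here says whether the counting used strand.

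The adaptor gene Traf6 (FBgn0265464) lies on chromosome X from 8154599 to 8157386, on the minus strand, with 1 transcript of 2788 nt. Its protein is known to act between Wengen and JNK and also in Toll signalling. The CPM of Traf6 was 9.08, 9.22 and 9.54 in controls and 6.24, 6.80 and 7.81 after H2O2. Every H2O2 library lay below every control, and Traf6 was the 1 gene of the 5 whose groups did not overlap; among all tested genes, 10.4% had H2O2 libraries entirely below the controls. The controls were close together, with a coefficient of variation of 2.54%, against 11.4% in the H2O2 group. The log2 fold change was −0.42 (SE 0.15, 95% interval −0.77 to −0.06), a difference of −25.1%. It did not pass the threshold (unadjusted p = 0.0265, edgeR adjusted p = 0.252). In bulk RNA, fewer cells that express a gene and less RNA per cell cannot be told apart.

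**Figure D2:**
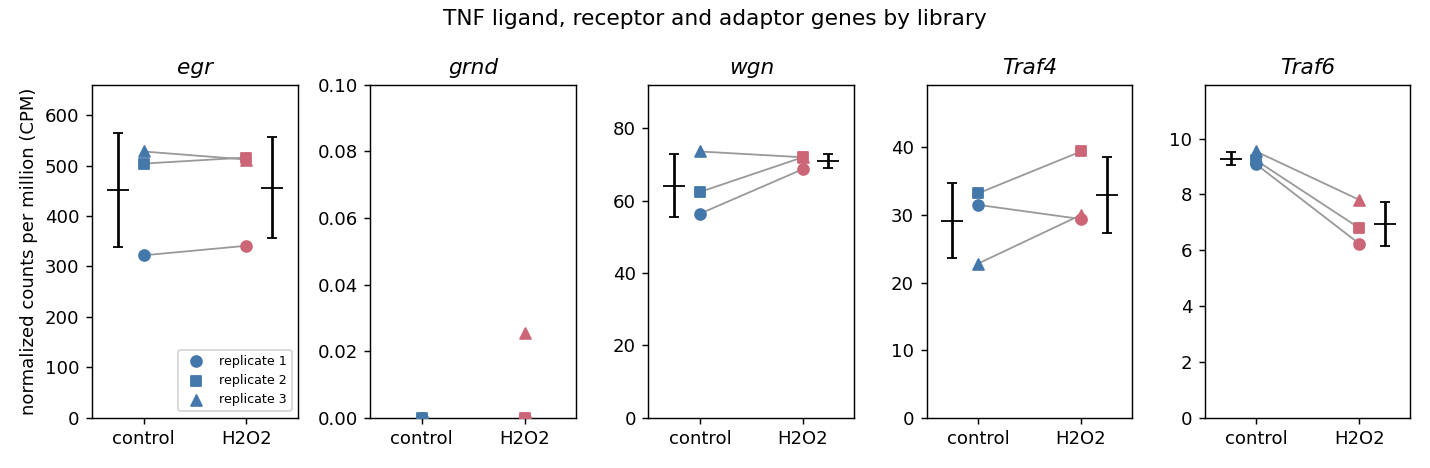
Normalized counts (CPM) of each gene by library (linear axes from 0; blue control, red H2O2; grey lines join libraries with the same replicate number; black marks give the mean ± SD of 3 libraries, not drawn for grnd). Replicate 1 is lowest for egr in both groups, grnd has 1 count in 1 library, and the Traf6 libraries lie at 9.08 to 9.54 CPM in controls and at 6.24 to 7.81 CPM after H2O2.

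In edgeR's quasi-likelihood test, 4 of the 5 genes passed the low-count filter and 0 of them were called at an adjusted p under 0.05, where 3.14% of all 8955 genes tested were called, 2.57% higher and 0.57% lower. At an unadjusted p under 0.05, 1 of them (Traf6) passed, against 14.0% of all genes, and DESeq2 called 0 of them and 7.88% of all genes. With the replicate number as a block, 21.7% of all genes were called, 8.99% higher and 12.8% lower, and 1 of the 4 genes was called: Traf6 was lower, with a log2 fold change of −0.42 (SE 0.11, edgeR adjusted p = 0.0179). Within pairs 1, 2 and 3 the log2 difference of Traf6 was −0.54, −0.44 and −0.29. When a trend on transcript length was removed from the blocked fit, the share of genes called lower went from 12.8% to 1.61%. Traf6, at 2788 nt, is longer than the median tested gene at 1873 nt. The genes egr, wgn and Traf4, at 2162, 2415 and 2361 nt, are longer than this median too. Their log2 fold changes without the block were 0.02, 0.14 and 0.17. The part of transcript length in any of these differences was not tested. When a fit with the block also took out the length trend, the log2 fold change of Traf6 was −0.35 (SE 0.10). It was no longer called (edgeR unadjusted p = 0.0101, adjusted p = 0.0957). That fit called 7.59% of all genes, 1.61% lower. The blocked intervals were −0.01 to 0.32 for wgn and −0.03 to 0.39 for Traf4, and both include 0. With the length trend also removed, the interval was −0.03 to 0.44 for Traf4 and 0.02 to 0.35 for wgn, which excludes 0. In that fit wgn was not called (log2 fold change 0.18, edgeR unadjusted p = 0.0329, adjusted p = 0.192).

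**Figure D3:**
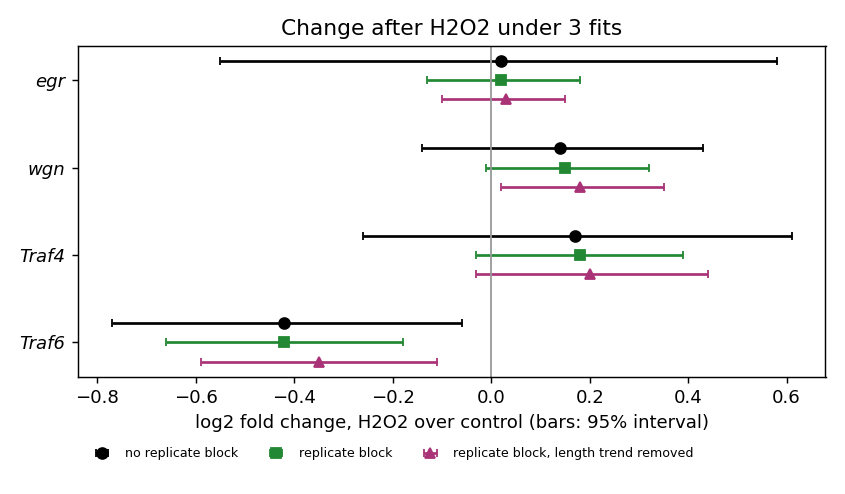
Log2 fold change after H2O2 with its 95% interval for the 4 genes tested, in the fit without the replicate block (black), with it (green) and with both the block and a length correction (purple). The egr values stay at 0.02 to 0.03 while the interval shrinks, and the Traf6 values lie at −0.42, −0.42 and −0.35.

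The adaptors were also set against each other within each library. The ratio of Traf4 to Traf6 TPM was 4.15, 4.32 and 2.87 in controls and 5.63, 6.93 and 4.60 after H2O2. Every H2O2 library had a higher ratio than every control. The mean went from 3.78 ± 0.795 to 5.72 ± 1.17 (SD, n = 3 per group), a mean log2 difference of 0.60. An exact two-sided permutation test over all 20 splits gave p = 0.1, the smallest value that 3 libraries against 3 allow.

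Genes lying just downstream on the same strand were examined for each of the 5, up to 5 kb away. Such a gene with a row in the tables was found for egr, wgn and Traf6. CG2269 begins 0.958 kb past the end of egr, at 10085169 on chromosome 2R, and carries sut4 on its opposite strand. Counts of sut4 are not given here, and no source used here says whether the counting used strand. CG2269 had 19, 45 and 31 counts in controls and 222, 445 and 245 counts after H2O2, so the lowest H2O2 library exceeded the highest control. It rose after H2O2, with a log2 fold change of 3.17 (SE 0.38, edgeR adjusted p = 0.0134), against 0.02 for egr itself; 2.57% of all genes tested were called higher. This call was lost without control replicate 2 (log2 fold change 3.48, edgeR adjusted p = 0.0712) or control replicate 3 (3.16, 0.0744). It was also lost without H2O2 replicate 2 (2.85, 0.0558). In each of these fits 0 of all genes tested were called. CG2269 was called by DESeq2 (3.17, DESeq2 adjusted p = 1.5e-13) and with the replicate block (3.17, edgeR adjusted p = 2.93e-06). With the block and the length correction it was also called (3.32, edgeR adjusted p = 0.000117).

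Set against the egr counts of the same library, CG2269 had 0.159, 0.236 and 0.162 counts per 100 egr counts in controls, and 1.81, 2.06 and 1.21 per 100 after H2O2. The mean was 0.186 ± 0.0435 in controls and 1.70 ± 0.435 after H2O2 (SD, n = 3). Replicate 1, the lowest H2O2 library for egr, was not the lowest for this ratio, and the groups did not overlap. Downstream of wgn, 1.335 kb away, lncRNA:CR44705 had 0 counts in all controls and 2, 3 and 2 counts in the H2O2 replicates. Against 3 counts set for the control group this is 2.28-fold higher. That value takes the 7 H2O2 counts as exact, so it is not a lower limit. It did not pass the low-count filter.

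Gbeta5, a G protein beta subunit gene 2.323 kb downstream of Traf6, had a CPM of 1.77, 2.51 and 2.46 in controls and 3.35, 2.65 and 3.83 after H2O2. Its groups did not overlap in CPM, as in 9.98% of all genes in the higher direction. In TPM they did overlap, at 1.49 to 2.02 in controls and 1.93 to 3.05 after H2O2. Gbeta5 was not called (log2 fold change 0.54, SE 0.25, edgeR adjusted p = 0.406). Per 100 Traf6 counts, Gbeta5 had 19.5, 27.2 and 25.8 counts in controls and 53.6, 38.9 and 49.0 after H2O2. In this ratio the values of Traf6 were lower and those of Gbeta5 higher after H2O2, and neither was called without the block. With the block Traf6 was called and Gbeta5 was not (edgeR adjusted p = 0.0632).

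**Figure D4:**
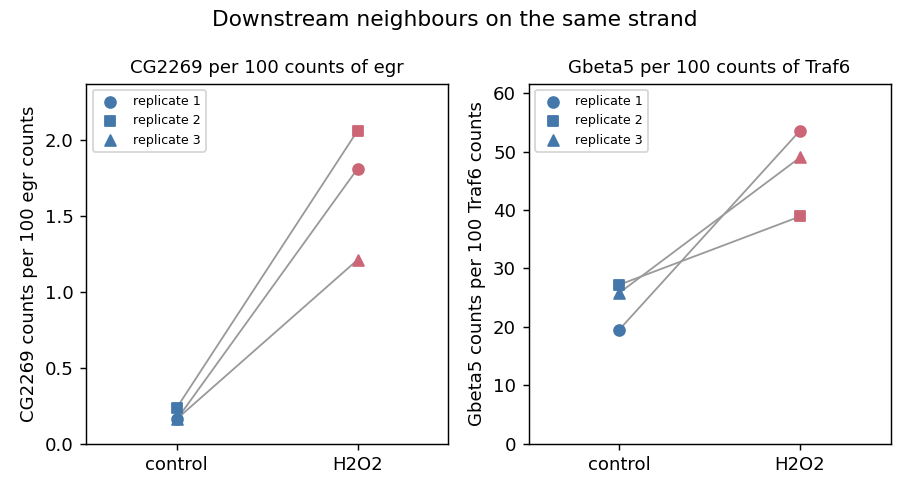
Counts of the downstream neighbour per 100 counts of the upstream gene in the same library, for CG2269 with egr (left) and Gbeta5 with Traf6 (right); axes start at 0, marker shape gives the replicate number, and grey lines join libraries of the same number. CG2269 goes from at most 0.236 to at least 1.21 per 100 egr counts, and Gbeta5 from at most 27.2 to at least 38.9 per 100 Traf6 counts.

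Except for grnd, which had too few counts, the genes whose log2 CPM followed each of the 5 most closely were sought among 6316 other genes of at least 10 CPM, as a description over 6 libraries that share their depth and replicate structure. For egr they were CG11170 (Pearson r = 0.998) and MESK2 (0.997), and MESK2 had 40.7, 64.0 and 65.2 CPM in controls and 43.0, 62.5 and 65.1 CPM after H2O2, the same dip in replicate 1. A correlation of 0.9 or more with egr was reached by 5.59% of the candidates. For Traf6 they were Reps (0.993) and tea (0.991), a telomere protein gene, and Reps had 90.2, 94.2 and 99.2 CPM in controls and 67.8, 72.9 and 81.2 CPM after H2O2. For wgn they were eIF3f1 (0.983), a translation initiation factor gene, and the syntaxin gene Syx16 (0.978). For Traf4 they were CG6843 (0.992) and CG5447 (0.990). With Traf6, wgn and Traf4, 3.89%, 0.63% and 0.62% of the candidates reached 0.9.

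Beside the 5 genes, 28 further genes of the route from Eiger to JNK and cell death were examined, and all 28 passed the low-count filter. Their control means ran from 0.163 TPM for Tace, the protease gene of the type that sheds TNF ligands, to 293 TPM for ben, a ubiquitin-conjugating enzyme gene. Of the 28, 25 were below egr, 9 below wgn, 4 below Traf4, 3 below Traf6 and 0 below grnd in control mean TPM. In edgeR's test 0 of 28 were called, with 6 at an unadjusted p under 0.05 (14.0% of all genes), and DESeq2 called 2 lower (Ask1 and hep), against 3.86% of all genes. The median log2 fold change was −0.06 for the list and 0.025 for all genes tested. Library ranges of CPM did not overlap for 1 higher and 5 lower genes of the 28, against 9.98% and 10.4% of all genes.

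The JNK gene bsk had 120, 117 and 111 CPM in controls and 127, 127 and 121 CPM after H2O2. In CPM every H2O2 library was above every control, as in 9.98% of all genes tested. In TPM its ranges overlapped, at 89.4 to 98.6 in controls and 91.5 to 96.3 after H2O2. The log2 fold change of bsk was 0.11 (edgeR adjusted p = 0.78). Of the kinases above JNK, the MAP3K gene Tak1 had −0.10 (edgeR adjusted p = 0.844), the JNK kinase gene hep −0.34 (0.175) and msn, the Misshapen kinase gene, −0.37 (0.301). The JNK phosphatase gene puc, a target of the pathway that also limits it, had 186, 336 and 251 CPM in controls and 158, 313 and 250 CPM after H2O2. As for egr, replicate 1 was the lowest in both groups and the ranges overlapped (log2 fold change −0.10, edgeR adjusted p = 0.954). Diap1, the caspase inhibitor gene, had 242, 366 and 365 CPM in controls and 243, 358 and 373 CPM after H2O2 (edgeR adjusted p = 1.0).

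With the replicate block, 1 of the 28 genes was called higher and 5 lower, against 8.99% and 12.8% of all genes. The lower genes were msn (log2 fold change −0.36, edgeR adjusted p = 0.00499), the MAP3K genes Ask1 (−0.36, 0.00412) and slpr (−0.44, 0.00119), hep (−0.34, 0.00647) and the scaffold and ubiquitin ligase gene POSH (−0.26, 0.0356). Their gene lengths were 5770, 4621, 5319, 4386 and 3169 nt. With the length correction in the blocked fit, their log2 fold changes were −0.06, −0.14, −0.17, −0.14 and −0.15, and 0 of them were called by edgeR. The higher gene was rpr (reaper), a killer gene that antagonises Diap1. The CPM of rpr was 4.51, 10.5 and 5.34 in controls and 7.33, 17.5 and 16.2 after H2O2, so the groups overlapped while each pair rose, by 0.70, 0.73 and 1.60 on the log2 scale. Its log2 fold change was 1.01 with edgeR adjusted p = 0.348 without the block and 0.00833 with it, and 0.87 (edgeR adjusted p = 0.04) with the length correction, a fit in which 5.99% of all genes were called higher.

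**Figure D5:**
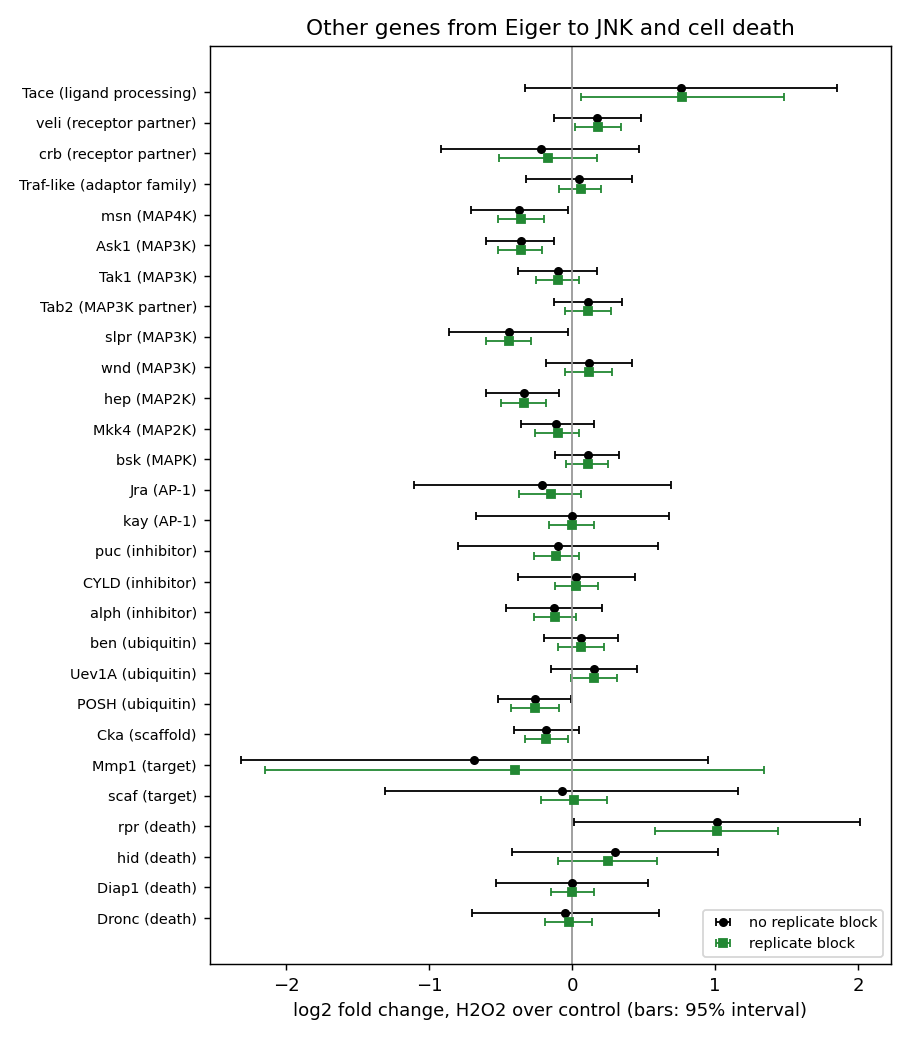
Log2 fold change after H2O2 with its 95% interval for 28 further genes of the route from Eiger to JNK and cell death, with their role in parentheses, without the replicate block (black) and with it (green). Most intervals include 0; msn, Ask1, slpr, hep and POSH lie at −0.44 to −0.26, and rpr at 1.01.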

How the data were processed

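Poly(A) RNA of 6 S2 cell libraries was measured with a stranded mRNA kit, per the labels' protocols. Reads were processed with STAR 2.4.0j, RSEM 1.2.21 and build dm6, per the submitters' processing notes, which name no annotation release. The authors' tables give, per the file headers, an expected count and a TPM value per gene, with lengths and a posterior SD of the count, which was 0 for all 5 genes. Symbols and positions came from Ensembl release 115 (BDGP6.54, the dm6 assembly) for 16419 of 16451 genes.

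Expected counts were rounded. With edgeR 4.0.16 in R 4.3.3, the filterByExpr filter left 8955 genes, which were scaled by TMM. The model compared H2O2 with control by a robust quasi-likelihood F test, two-sided, with Benjamini-Hochberg adjustment over all genes tested. CPM is relative to TMM-scaled totals of the tested genes. Before filtering and scaling, totals over all genes ranged from 35404927 to 42043808 counts per library. The CPM limit of grnd used the unscaled total of the control group over all genes. Deviations from group means correlated at 0.717, 0.518 and 0.601 in same-numbered libraries 1, 2 and 3, so the numbers were read as pairs, from the data and not from the labels. Libraries were not duplicates (chi-square per degree of freedom from 48 to 225). By this measure control 1 was nearest H2O2 library 1 (65.8), and control 3 was nearest H2O2 library 3 (48). Control 2 was nearer H2O2 library 3 (97.8) than H2O2 library 2 (127), so this measure does not pair the libraries of number 2. Calls made with the block rest on the pairing. Fits were tested on simulated data. Alternatives used DESeq2 1.42.0, limma 3.58.1 on TPM, other scalings and filters, the block, a loess on length, and left-out libraries.

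The genes, lists and tests were chosen with earlier results of these data known. Named were the 5 genes, their downstream neighbours within 5 kb, list genes called in either fit, 6 fixed list genes (bsk, hep, Tak1, msn, puc, Diap1), and the 2 genes most correlated with each. MESK2 and Reps values were given as examples chosen after they were seen. One germ-line marker had no match and was not used here.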

Additional observations from a re-analysis of the deposited data

How the results depend on the processing

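None of the 4 genes tested (egr, wgn, Traf4, Traf6) was called under the other scalings, without the low-count filter (where grnd also entered and was not called, with no fold given at 1 count), by DESeq2, with the length trend removed, by limma on TPM or in the 6 fits that left out 1 library. Dropping control 2, control 3 or H2O2 library 2 left 0 of all genes tested called, so those fits could not call any of the 4. With control 1, H2O2 library 1 or H2O2 library 3 dropped, 91, 154 and 113 genes were called in all. The replicate block called 1 of 4; with both libraries of 1 number also left out, a choice made after seeing the data, it called 1 without pair 1 (Traf4, 0.32, edgeR adjusted p = 0.0396), 0 without pair 2 and 1 without pair 3 (Traf6, −0.50, 0.0371). Traf6 was −0.42 with the block over all pairs, and −0.52 to −0.35 with 1 library left out. The sign of egr turned to −0.07 in both limma fits and −0.01 with the block without pair 1, and ranged from −0.18 to 0.18 with 1 library left out; wgn ranged from 0.06 to 0.25 and Traf4 from 0.02 to 0.27. The adaptor ratio was 0.60 with the pairs as a block (exact sign-flip p = 0.25, the smallest it allows) and 0.41 to 0.75 with 1 library left out. Counts per effective length give the same ratio by construction. The receptor ratio could not be fitted.

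Of the 28 further genes, DESeq2 called 2, the block 6, the block with the length correction 1, and the block without pairs 1, 2 and 3 called 6, 3 and 6. Leaving out 1 library gave 0 to 0, a range that includes the fits above in which 0 of all genes were called. Downstream neighbours called ranged from 0 to 1 with 1 library left out. All genes called numbered 281 as reported, 706 by DESeq2, 1947 with the block, 680 with the block and the length correction, 1536, 768 and 1652 with the block without pairs 1, 2 and 3, and 0 to 154 with 1 library left out. Tak1 turned to 0.01 with the length trend removed, with and without the block. The sign of puc turned to 0.13 without control replicate 2 and without H2O2 replicate 1, in a range from −0.34 to 0.13 with 1 library left out. Diap1 turned to −0.003 with DESeq2 size factors and by DESeq2, −0.01 without the filter or with the length trend removed (with and without the block), −0.09 in both limma fits, −0.004 and −0.03 with the block without pairs 1 and 3, and −0.18, −0.08 and −0.12 without control replicate 1, H2O2 replicate 2 and H2O2 replicate 3, in a range up to 0.17. The cause was not tested. Depth limits grnd, with 1 count in 6 libraries, and lncRNA:CR44705, with 7.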
